A study of Homo sapiens with 21 samples.

Results

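Prostaglandin synthesis and signalling was followed through 10 genes: the phospholipase gene PLA2G4A, the cyclooxygenase genes PTGS1 and PTGS2, the terminal synthase genes PTGES, PTGES2, PTGES3 and PTGIS, the receptor genes PTGER2 and PTGER4, and HPGD, which encodes the enzyme that inactivates prostaglandins. They were chosen by gene name and are 10 of the 61544 genes in the deposited count table, which lists each of them on 1 row. Enough reads were present to test 9 of the 10, and HPGD was too low.

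Poly(A) RNA of BJ cells was sequenced in 21 libraries. BJ is an established line of human skin fibroblasts that stops dividing after a limited number of passages, and the labels name no genetic change. The groups, with 3 libraries each, were untreated cells of the 5 passages P3, P11, P24, P30 and P33, P11 cells given 50 ng/ml of DOX, which the series title spells out as doxorubicin, and P11 cells given its solvent DMSO. The labels do not say whether the libraries of a group came from separate cultures, so the p-values reflect the spread between these libraries alone, which may be technical. In bulk RNA, fewer cells of a type and less RNA per cell cannot be told apart.

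Prostaglandins are made from arachidonic acid, which cytosolic phospholipase A2 releases from membranes. Cyclooxygenases turn it into prostaglandin H2, and terminal synthases turn that into prostaglandin E2 or prostacyclin. Prostaglandin E2 acts on neighbouring cells through the EP receptors, of which EP2 and EP4 raise cyclic AMP, and it is known as a secreted product of skin fibroblasts. PTGS1 is the classical housekeeping cyclooxygenase gene, while PTGS2 is an immediate early gene whose mRNA is induced fast and decays fast.

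The promoter and a stretch of the 3′ UTR of PTGS2 are shown because promoter motifs and AU-rich elements are the features most often described for it. PTGES, the inducible synthase gene that is often described together with it, is shown for contrast. The 2 promoter windows below are from RefSeq on GRCh38.p14, run 5′ to 3′ on the gene's own strand, and hold 250 bases before the transcription start and 50 after it. Capitals mark the motifs TATAAA (the core promoter element near the start), GCAAT (core of C/EBP sites), TGACG (core of CRE sites) and GGGCGG (SP1 site) on either strand. A TGACG on the opposite strand reads as CGTCA.
PTGS2 promoter, chr1:186680374-186680673, minus strand: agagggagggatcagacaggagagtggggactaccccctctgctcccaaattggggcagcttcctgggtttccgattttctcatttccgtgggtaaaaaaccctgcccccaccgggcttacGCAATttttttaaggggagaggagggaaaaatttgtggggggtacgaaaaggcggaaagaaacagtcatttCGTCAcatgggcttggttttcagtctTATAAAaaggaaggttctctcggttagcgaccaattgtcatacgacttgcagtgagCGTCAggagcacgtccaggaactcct
PTGES promoter, chr9:129752993-129753292, minus strand: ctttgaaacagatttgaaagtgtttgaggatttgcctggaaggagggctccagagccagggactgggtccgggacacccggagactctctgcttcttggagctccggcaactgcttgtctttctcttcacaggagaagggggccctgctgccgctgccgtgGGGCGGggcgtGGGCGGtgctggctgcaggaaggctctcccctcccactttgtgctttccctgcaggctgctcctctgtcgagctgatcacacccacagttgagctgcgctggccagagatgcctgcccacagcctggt
PTGS2 3′ UTR, bases 2 to 31 of the UTR, with the repeated ATTTA motif in capitals: agaagtctaatgatcatATTTATTTATTTA

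The PTGS2 window held 1 TATAAA that began 32 bases before the start, 1 C/EBP core, 2 CRE cores and no SP1 site. The PTGES window held 2 SP1 sites and none of the other 3. Of 35116 RefSeq promoters of the same length, 11.5% held TATAAA, 24.5% GCAAT, 24.6% TGACG and 45.0% GGGCGG. The other motifs searched on both strands, not capitalised above, were CACGTG (E-box) and TGANTCA (AP-1 site), with no match in either window, and these were present in 7.26% and 7.71% of all promoters. None of the capitalised matches overlap, and a match is a description of letters, not of binding. Of the 10 genes, 9 had an entry in the promoter table, and PTGIS had none.

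ATTTA is the core of the AU-rich elements through which unstable mRNAs are recognised. The principal (APPRIS) PTGS2 transcript in GENCODE v29 carried 22 ATTTA in a 3′ UTR of 2565 bases, counting overlapping matches, and 1.83% of 19536 genes had as many. PLA2G4A had 4 in 476 bases, which was as dense at 8.40 per kb against 8.58 per kb for PTGS2. PTGS1, by contrast, had 3 in 3162 bases, and PTGES2 had none. PTGER4 had 9, PTGES3 6, PTGER2 5, HPGD 5, PTGIS 2 and PTGES 1.

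Library totals ran from 12946375 to 27194352 counts. Levels are given in CPM, which are counts scaled to a common library size with TMM factors, and log2 fold changes and adjusted p-values are from edgeR's quasi-likelihood test with Benjamini-Hochberg adjustment over 16821 genes, called under 0.05. Fibroblast markers summed to 14300 to 44200 CPM in every library, while KRT5 was at 0 throughout and the leukocyte, endothelial, melanocyte and smooth muscle lists never summed above 2.61 CPM. The keratinocyte list summed to at least 12.7 CPM in each library, with KRT10 the highest of the 6 genes. The passage libraries and the DOX and DMSO libraries were not counted alike: of 9429 genes that lie inside another gene on the same strand, 0 were counted in the 15 passage libraries and 3950 in the 6 libraries of DOX and DMSO cells. DMSO cells were therefore not tested against untreated P11 cells. PTGS1 and PTGES3 each contain such a small gene, whose mean count was 0 in passage libraries and at most 5 in the others, against 2131 for PTGS1 and 5074 for PTGES3 in the DOX and DMSO libraries.

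**Figure D1:**
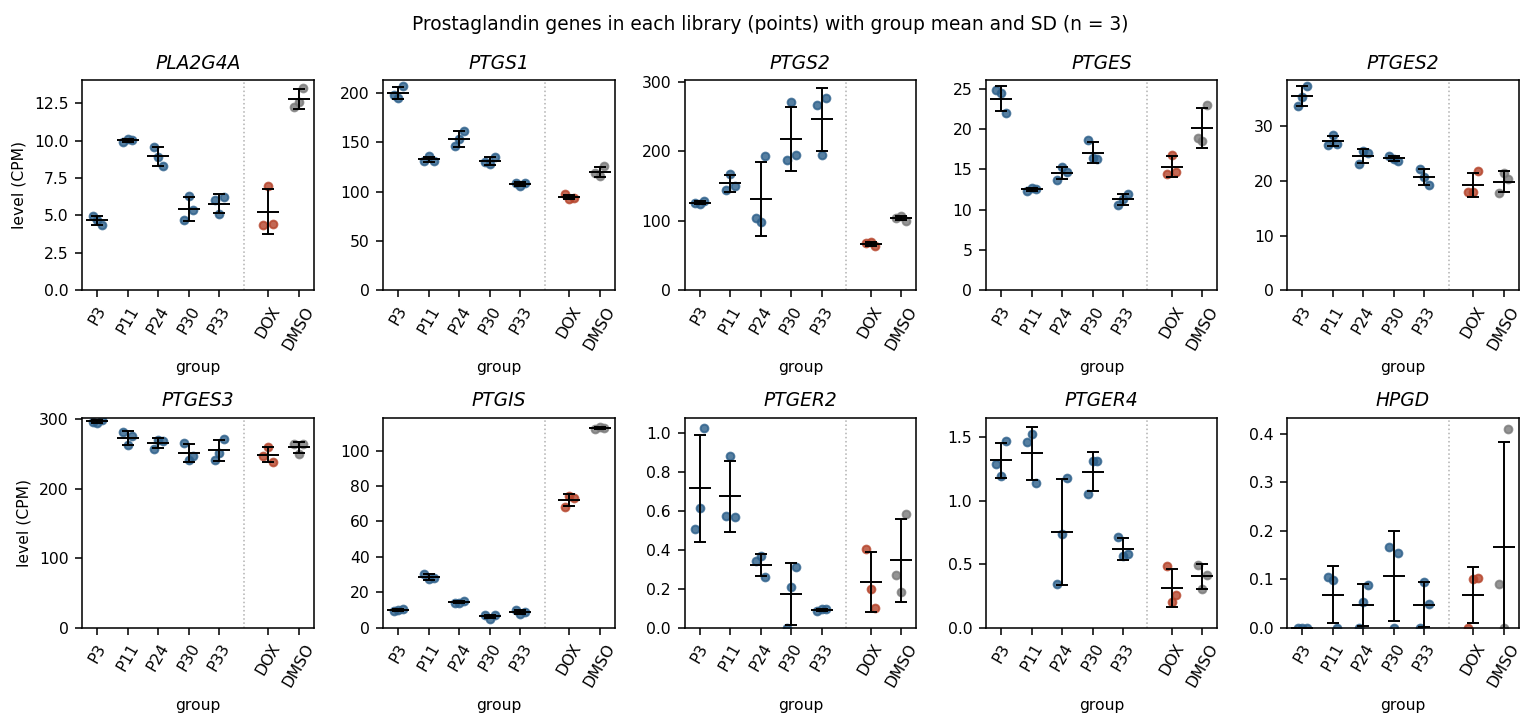
Level in CPM (vertical axes, each from 0 with its own scale) of the 10 genes in each library, by group (horizontal axes), with points for libraries and bars for the group mean and SD of 3 libraries. PTGS2 was highest at P33 among passages, while PTGS1, PTGES, PTGES2 and PTGER2 were lowest there, and PLA2G4A and PTGIS peaked at P11.

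Late cells had more PTGS2 and less of most others among the 9 genes tested. In P33 cells against P3 cells 7 of the 9 genes tested passed, with PTGS2 higher and PTGS1, PTGES, PTGES2, PTGES3, PTGER2 and PTGER4 lower. Across all genes tested, 67.8% passed in this comparison, 34.5% higher and 33.3% lower, so 7 of 9 is close to the background. PTGER2 passed the filter on low counts only through its early passages, so its call as lower is not read as a result. The median log2 fold change of the 9 was −0.77, against 0 over all genes tested. The libraries of P33 and P3 did not overlap for 8 of the 9 genes, and for 70.9% of all genes tested. In the test for any difference among the 5 passages, all 9 passed, as did 82.9% of all genes tested. Beside these values, the 10 fibroblast markers summed to 14300 to 16300 CPM at P33 and 18700 to 19400 CPM at P3, with 4 called as higher and 5 as lower. The 6 keratinocyte markers summed to 22.5 to 23.6 CPM at P33 and 14.1 to 15.5 CPM at P3, with KRT10 called as higher and KRT5 and KRT1 at 0 in both. The 5 leukocyte markers summed to 0.916 to 1.13 CPM at P33 and 0.539 to 1.01 CPM at P3, with PTPRC called as higher, and DES of smooth muscle was called as lower (0.104 CPM at P33 and 0.483 CPM at P3). Their part in the results was not tested.

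The intermediate passages were also set against P3 and against each other. Of the 9 genes, 5 passed at P11 against P3 (2 higher and 3 lower), 8 at P24 against P3 (2 higher and 6 lower) and 7 at P30 against P3 (1 higher and 6 lower), beside 46.5%, 54.4% and 58.6% of all genes tested. Between neighbouring passages 3 passed at P24 against P11, 5 at P30 against P24 and 5 at P33 against P30, beside 33.6%, 35.1% and 48.4% of all genes. The genes higher at P11 and P24 than at P3 were PTGIS and PLA2G4A, and the gene higher at P30 and P33 was PTGS2.

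PLA2G4A, the cytosolic phospholipase A2 that frees arachidonic acid, lies on chromosome 1 next to PTGS2. The gap between them (PLA2G4A at 186828949 to 186988981 on the plus strand and PTGS2 at 186671791 to 186680922 on the minus strand, GRCh38) is 148026 bases with 0 genes between. PLA2G4A had 4.99, 4.70 and 4.37 CPM at P3, 9.92, 10.1 and 10.1 at P11, 9.62, 8.94 and 8.32 at P24, 4.70, 6.31 and 5.35 at P30, and 6.02, 5.08 and 6.27 at P33. All P11 and P24 libraries lay above all others of the passage series. It was 2.13-fold higher at P11 than at P3 (log2 fold change 1.09, SE 0.132, adjusted p = 3.96e-08) and 1.90-fold higher at P24 than at P3 (adjusted p = 5.51e-07). It then fell at P30 against P24 by 0.71 on the log2 scale (adjusted p = 0.00013). At P33 against P3 its log2 fold change was 0.30 (SE 0.140, adjusted p = 0.0573), which missed the threshold although every P33 library was above every P3 library. With DESeq2 on the same counts this adjusted p was 0.0475, and over all settings tried the log2 fold change stayed positive.

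PTGS1, the constitutive cyclooxygenase gene (chromosome 9, 122370530 to 122395703, plus strand), had 198, 195 and 207 CPM at P3 and 131, 136 and 131 CPM at P11. It had 146, 153 and 162 CPM at P24, 131, 128 and 136 CPM at P30, and 109, 106 and 109 CPM at P33. The P3 libraries were the highest and the P33 libraries the lowest, and neither set overlapped another passage. PTGS1 was 1.86-fold lower at P33 than at P3 (log2 fold change −0.89, SE 0.05, adjusted p = 1.63e-16). The decline was not steady: P24 was above P11 (log2 fold change 0.21, adjusted p = 0.00133), and P11 and P30 spanned nearly the same levels.

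PTGS2, the inducible cyclooxygenase gene, lies opposite the noncoding gene PACERR, which had a mean of 10.1 counts in passage libraries against 3533 for PTGS2. PTGS2 had 126, 125 and 128 CPM at P3, 145, 167 and 150 CPM at P11, 104, 98.0 and 193 CPM at P24, 188, 271 and 194 CPM at P30, and 266, 194 and 277 CPM at P33. All P30 and P33 libraries were above all P3 and P11 libraries. The spread between libraries was widest at P24, with an SD of 1.38% of the mean at P3, 7.69% at P11, 40.5% at P24, 21.4% at P30 and 18.3% at P33. P33 cells had 1.95 times the P3 level (log2 fold change 0.96, SE 0.150, adjusted p = 1.09e-06). P30 cells had 1.73 times the P3 level (adjusted p = 3.54e-05), and the P33 and P30 libraries overlapped (log2 fold change 0.18, adjusted p = 0.353). With no count filter, P33 against P30 passed (adjusted p = 0.0138), as did P11 against P3 (0.25, adjusted p = 0.000276, where the filtered table gave 0.29 and adjusted p = 0.122). For PTGS2 that unfiltered fit gave far smaller p-values from the same libraries, such as an adjusted p of 5.53e-53 for P33 against P3. Its additional PTGS2 calls are therefore not read as results.

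At P24 the PTGS2 value rested on 1 library. P24 replicate 3 had 193 CPM, inside the P30 range, and the other P24 libraries had less PTGS2 than any P3 library. With all libraries the P24 against P3 log2 fold change was 0.07 (adjusted p = 0.752). Without P24 replicate 3 it was −0.32 (adjusted p = 0.0194), and P24 against P11 was −0.61 (adjusted p = 0.000122), where all libraries gave −0.22 (adjusted p = 0.290). With no count filter the adjusted p for P24 against P11 over all libraries was 0.011, which is likewise not read as a result. The step of P30 against P24 passed either way, with 0.72 (adjusted p = 0.000291) over all libraries and 1.109 (adjusted p = 3.1e-09) without that one. PTGER4 was also highest in P24 replicate 3 among the P24 libraries, with 27 counts there against 6 and 14 in replicates 1 and 2.

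**Figure D2:**
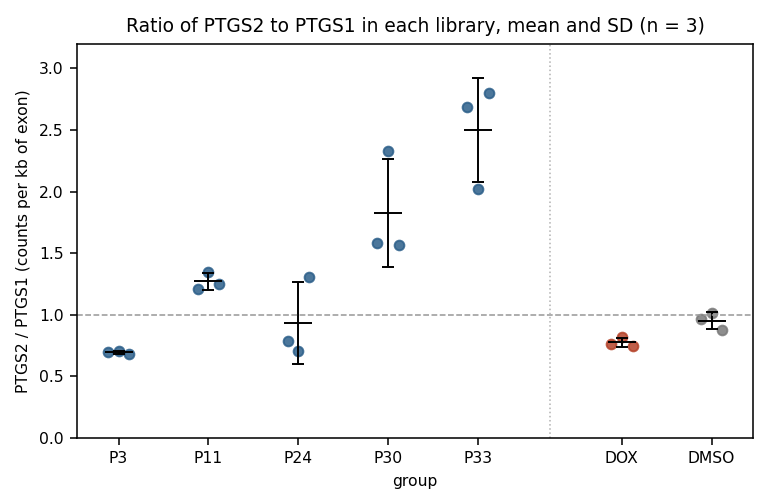
Ratio of PTGS2 to PTGS1 in counts per kb of merged exon (vertical axis, dashed line at 1) in each library by group (horizontal axis), with points for libraries and bars for the mean and SD of 3 libraries. All P33 libraries lay at or above 2.02 and all P3 libraries at or under 0.702, and each DOX library lay under each DMSO library.

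The 2 cyclooxygenases can be set against each other within a library on a per-length scale. The ratio of PTGS2 to PTGS1 counts per kb of exon averaged 0.693 ± 0.012 at P3, 1.27 ± 0.072 at P11, 0.934 ± 0.33 at P24, 1.83 ± 0.44 at P30 and 2.5 ± 0.42 at P33 (SD, n = 3 each). PTGS1 was thus the more abundant per length at P3, and PTGS2 in every library of P11, P30 and P33. The P33 ratio was 3.57 times the P3 ratio, with exact two-sided permutation p = 0.1, the smallest that 3 against 3 libraries can give.

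PTGES encodes the inducible microsomal prostaglandin E synthase (chromosome 9, 129738331 to 129753042, minus strand). It had 24.8, 24.5 and 22.0 CPM at P3, 12.3, 12.7 and 12.5 CPM at P11, 13.7, 15.3 and 14.6 CPM at P24, 18.6, 16.4 and 16.3 CPM at P30, and 10.6, 11.3 and 11.96 CPM at P33. Every P3 library was above every later one, the P30 libraries were above those of P11, P24 and P33, and P33 was lowest. The P33 level was 2.12-fold lower than at P3 (log2 fold change −1.08, SE 0.0855, adjusted p = 7.5e-13). The step of P33 against P30 was −0.61 (adjusted p = 1.81e-06). The lowest mean of PTGES and the highest of PTGS2 among the passages were both at P33.

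PTGES2 and PTGES3 encode the other 2 prostaglandin E synthases, of which the PTGES3 product is better known as the p23 cochaperone of HSP90. PTGES2 had 33.8, 35.4 and 37.4 CPM at P3, 26.6, 28.4 and 26.9 at P11, 23.2, 25.6 and 25.2 at P24, 24.6, 24.1 and 23.6 at P30, and 22.3, 20.8 and 19.3 at P33. Its P3 libraries were the highest and its P33 libraries the lowest. At P33 it was 1.70-fold lower than at P3 (log2 fold change −0.77, SE 0.0742, adjusted p = 8.16e-11). PTGES3 was the most abundant of the 10 genes per length in all 7 groups, at 75.0 ± 4.5 CPM per kb at P33 and 87.2 ± 0.67 CPM per kb at P3 (SD, n = 3 each). Its change was small, 1.16-fold lower at P33 than at P3 (adjusted p = 0.00045), and it was not called when only genes of at least 10 CPM were tested (log2 fold change −0.09, adjusted p = 0.1). PTGES3 also has processed pseudogenes that can share reads with it, so its level is uncertain.

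PTGIS, the prostacyclin synthase gene (chromosome 20, 49503874 to 49568137, minus strand), had the widest range of passage means among those of the 10 genes that stayed above 1 CPM. It had 9.63, 9.90 and 10.3 CPM at P3, 30.2, 27.2 and 27.9 CPM at P11, 14.2, 14.2 and 15.1 CPM at P24, 6.96, 5.10 and 6.90 CPM at P30, and 9.77, 7.91 and 8.92 CPM at P33. P11 stood above all other passages, and the highest passage mean was 4.49 times the lowest. PTGIS was 2.86-fold higher at P11 than at P3 (log2 fold change 1.52, SE 0.0794, adjusted p = 1.1e-15). It fell by 0.97 at P24 against P11 and by 1.21 at P30 against P24 on the log2 scale, and rose by 0.51 at P33 against P30 (adjusted p = 6.44e-12, 9.47e-12 and 0.00017). The ends of the series overlapped, so P33 against P3 gave −0.16 (SE 0.0910, adjusted p = 0.122).

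The EP2 receptor gene PTGER2 and the EP4 receptor gene PTGER4 were near the detection limit, and single reads weigh on their values. PTGER2 had 13, 16 and 21 counts at P3, 11, 18 and 9 at P11, 6, 7 and 6 at P24, 0, 4 and 4 at P30, and 2, 2 and 2 at P33. In CPM it averaged 0.0916 ± 0.0065 at P33 and 0.718 ± 0.28 at P3 (SD, n = 3 each), with no overlap (log2 fold change −2.86, SE 0.570, adjusted p = 4.95e-05). It passed the filter on low counts only through its levels at the early passages. Its calls as lower at later passages are therefore not read as results, although the counts of genes called include them. PTGER4 averaged 1.32 CPM at P3, 1.38 at P11, 0.751 at P24, 1.23 at P30 and 0.620 at P33. It was lower at P33 than at P3 (log2 fold change −1.06, SE 0.298, adjusted p = 0.00219), with 17, 12 and 12 counts in P33 libraries against 33, 31 and 30 in P3 libraries.

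The P24 calls of both receptors depended on the test and on single libraries: with DESeq2 on all libraries neither passed against P3 (adjusted p = 0.0659 for PTGER2 and 0.0581 for PTGER4). PTGER4 was called at P24 against P3 (log2 fold change −0.74, adjusted p = 0.0315), but leaving out P24 replicate 1 gave −0.43 (adjusted p = 0.224) and the call was also lost without P24 replicate 2 or P3 replicate 1 or 3. PTGER2 was called there too (−1.12, adjusted p = 0.0348), and the call was lost without any 1 of the 3 P24 libraries or P3 replicate 3, with −0.81 (adjusted p = 0.183) in that last case. PTGER4 lies opposite TTC33, which had a mean of 253 counts in passage libraries against 21.3 for PTGER4. The sources used here do not give the strand setting of the counting, so reads of the 2 genes may not be fully told apart.

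HPGD, which encodes 15-hydroxyprostaglandin dehydrogenase, the first step of prostaglandin breakdown, had 28 counts in all 21 libraries together. It had reads in 12 libraries and never exceeded 0.411 CPM. At P33 it had 3 counts and at P3 none, where 3 counts over the group's libraries set a limit of 0.0417 CPM. No difference in HPGD was detectable at this depth.

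**Figure D3:**
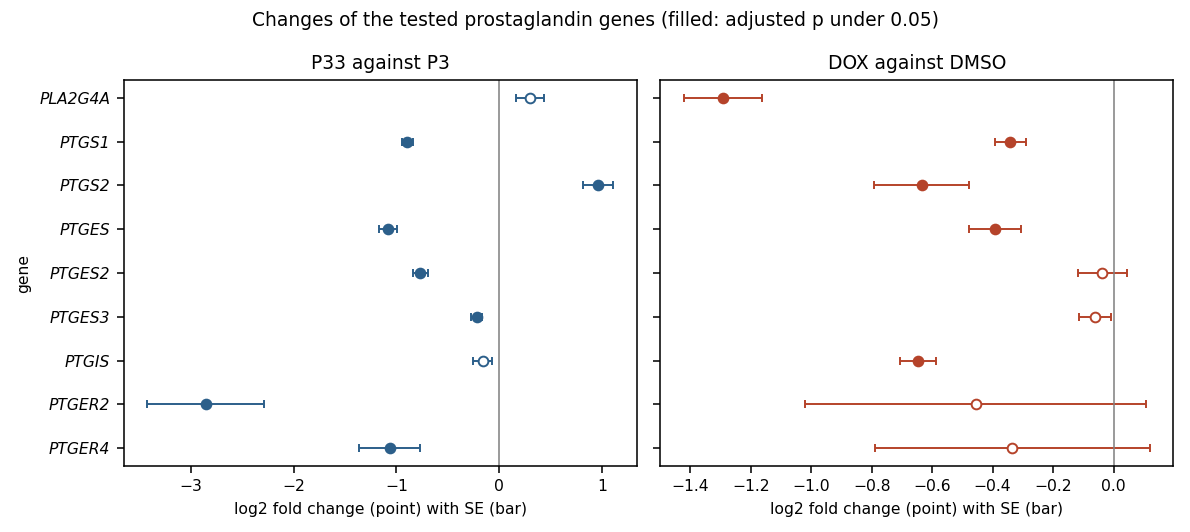
Log2 fold change (horizontal axes, point, with SE as bar; the 2 scales differ) of the 9 genes tested, for P33 against P3 on the left and DOX against DMSO on the right. Filled points passed at an adjusted p under 0.05: PTGS2 was above 0 at P33 and under 0 with DOX, and no gene was called above 0 with DOX.

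In doxorubicin-treated cells each of the 9 genes tested was lower or not called, with PTGS2 among the lower. Of the 9 genes, PTGS1, PTGS2, PTGES, PTGIS and PLA2G4A were lower in DOX cells than in DMSO cells and none was higher. Over all genes tested 37.3% passed in this comparison, 20.6% as lower. The median log2 fold change of the 9 was −0.39, against −0.01 over all genes tested. Those 5 genes were also the ones whose DOX and DMSO libraries did not overlap, as was true of 42.8% of all genes tested. The 5 leukocyte markers summed to 1.78 to 2.41 CPM in DOX cells and 0.645 to 0.970 CPM in DMSO cells, with CD3E and LYZ at 0 in DMSO cells, and PTPRC was the 1 of 2 tested that was called, as higher. Of the smooth muscle markers, MYH11 was called as higher (0.734 CPM in DOX cells and 0.0939 CPM in DMSO cells) and DES as lower (0.830 CPM in DOX cells and 1.58 CPM in DMSO cells). MYH11 passed the filter on low counts only through its level in DOX cells, so its call is not read as a result. Endothelial VWF (0.772 CPM in DOX cells and 1.47 CPM in DMSO cells) and melanocyte PMEL (0.347 CPM in DOX cells and 0.830 CPM in DMSO cells) were called as lower, and of the 10 fibroblast markers 3 were called as higher and 6 as lower. Their part in the results was not tested.

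PLA2G4A moved most. It had 4.36, 6.97 and 4.43 CPM in DOX cells and 12.3, 12.6 and 13.6 CPM in DMSO cells. Every DOX library was under every DMSO library, with DOX replicate 2 above its companions. The level in DOX cells was 2.45-fold lower (log2 fold change −1.29, SE 0.129, adjusted p = 5.86e-10).

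PTGS2 had 67.9, 68.8 and 63.4 CPM in DOX cells and 104, 106 and 100 CPM in DMSO cells, without overlap and with little spread in either group. It was 1.55-fold lower with DOX (log2 fold change −0.64, SE 0.158, adjusted p = 0.00164). That SE draws on the spread in all 7 groups, not on these libraries alone. Fitting the DOX and DMSO libraries by themselves gave −0.61 (adjusted p = 5.24e-07). PTGS1 had 97.5, 92.7 and 93.7 CPM in DOX cells and 119, 116 and 126 CPM in DMSO cells, and was 1.27-fold lower (adjusted p = 1.73e-06). The PTGS2 to PTGS1 ratio per kb averaged 0.775 ± 0.037 in DOX cells and 0.951 ± 0.069 in DMSO cells (SD, n = 3 each), 0.816 times, with exact two-sided permutation p = 0.1, the smallest possible.

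PTGIS was much more abundant in these libraries than in the passage series. It had 68.1, 74.3 and 73.5 CPM in DOX cells and 112, 113 and 113 CPM in DMSO cells, while untreated P11 cells had at most 30.2 CPM. The DOX level was 1.57-fold lower than the DMSO level (log2 fold change −0.65, SE 0.0604, adjusted p = 1.44e-10). PTGIS overlaps no other gene, and the difference between DMSO and untreated P11 cells was not tested. PTGES had 14.5, 16.8 and 14.7 CPM in DOX cells and 18.9, 18.5 and 22.9 CPM in DMSO cells, 1.31-fold lower (log2 fold change −0.39, SE 0.0860, adjusted p = 0.00042).

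The remaining 4 genes tested were not called with DOX. PTGES2 averaged 19.3 ± 2.2 CPM in DOX cells and 19.9 ± 1.9 CPM in DMSO cells, and PTGES3 averaged 248 ± 11 CPM in DOX cells and 259 ± 8.0 CPM in DMSO cells (SD, n = 3 each). PTGER2 had 10, 4 and 2 counts in DOX libraries and 6, 3 and 10 in DMSO libraries. PTGER4 had 12, 4 and 5 counts in DOX libraries and 11, 5 and 7 in DMSO libraries, and no difference was detectable at this depth. HPGD had 4 counts in DOX libraries and 9 in DMSO libraries.

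The drug effect and the late passage effect were compared directly, by testing the log2 fold change of DOX against DMSO minus that of P33 against P3. This difference passed for 7 of the 9 genes, against 51.2% of all genes tested. It was −1.60 for PTGS2 (SE 0.218, adjusted p = 2.23e-07) and −1.59 for PLA2G4A (SE 0.191, adjusted p = 1.93e-08). PTGS2 thus had opposite directions, called in both, while PLA2G4A was lower with DOX and not called at P33. PTGIS also had a lower value with DOX (−0.49, adjusted p = 0.000351). PTGS1, PTGES and PTGES2 fell more at P33 against P3 than with DOX, with differences of 0.55, 0.69 and 0.73 (adjusted p = 9.28e-08, 1.56e-05 and 1.33e-06). The drug was given at P11 while the late passage effect starts from P3, so these differences depend on the change from P3 to P11. From P11 to P33, mean CPM went from 133 to 108 for PTGS1, 12.5 to 11.3 for PTGES and 27.3 to 20.8 for PTGES2. It went from 28.4 to 8.87 for PTGIS, 154 to 246 for PTGS2 and 10 to 5.79 for PLA2G4A, with no test.

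Of 18 other prostanoid genes listed, 15 were tested, of which 7 were higher and 5 lower at P33 than at P3, beside 34.5% and 33.3% of all genes tested. In DOX cells 1 was higher and 7 lower than in DMSO cells, beside 16.7% and 20.6% of all genes. Their median log2 fold change was 0.37 at P33, against 0 over all genes, and −0.35 with DOX, against −0.01. TBXAS1 (0.648 CPM at P33 and 0.208 CPM at P3) passed the filter on low counts only through P33, and PTGER1 only through the passages before it. Their values at P33 against P3 are therefore not read as results, although the counts and the median include them. PTGER3, the gene of the EP3 receptor, averaged 0.747 CPM at P33 and 2.76 CPM at P3 (log2 fold change −1.88, adjusted p = 8.83e-09). It also fell with DOX, at 1.27 CPM in DOX cells against 2.63 CPM in DMSO cells (adjusted p = 0.0002). The prostaglandin transporter gene SLCO2A1 (1.12 CPM at P33 and 0.377 CPM at P3) and PTGFRN, whose product binds the prostaglandin F receptor (38.7 CPM at P33 and 11.4 CPM at P3), were higher at P33, with log2 fold changes of 1.57 and 1.77.

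AKR1C3, a prostaglandin F synthase gene, went opposite ways in the 2 comparisons. It averaged 1.53 CPM at P33 and 0.428 CPM at P3 (log2 fold change 1.82, adjusted p = 2.74e-07), and 3.17 CPM in DOX cells and 7.13 CPM in DMSO cells (log2 fold change −1.16, adjusted p = 6.27e-08). It has near-identical neighbours in its family that can share reads, so both values are uncertain. ABCC4, which exports prostaglandins, averaged 43.8 CPM in DOX cells and 71.3 CPM in DMSO cells (log2 fold change −0.70, adjusted p = 5.1e-11). PTGDS, the prostaglandin D synthase gene, averaged 0.358 CPM in DOX cells and 1.71 CPM in DMSO cells and is listed at 0 in all passage libraries, where overlapping genes were counted differently. It is among the 7 called as lower with DOX, but it passed the filter on low counts only through its level in DMSO cells, so that call is not read as a result. HPGDS, PTGDR and PTGDR2 were too low to test. PTGER3, and among the genes below PLA2G12A and CREM, share the strand and part of the span of another gene, so their reads may be split.

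**Figure D4:**
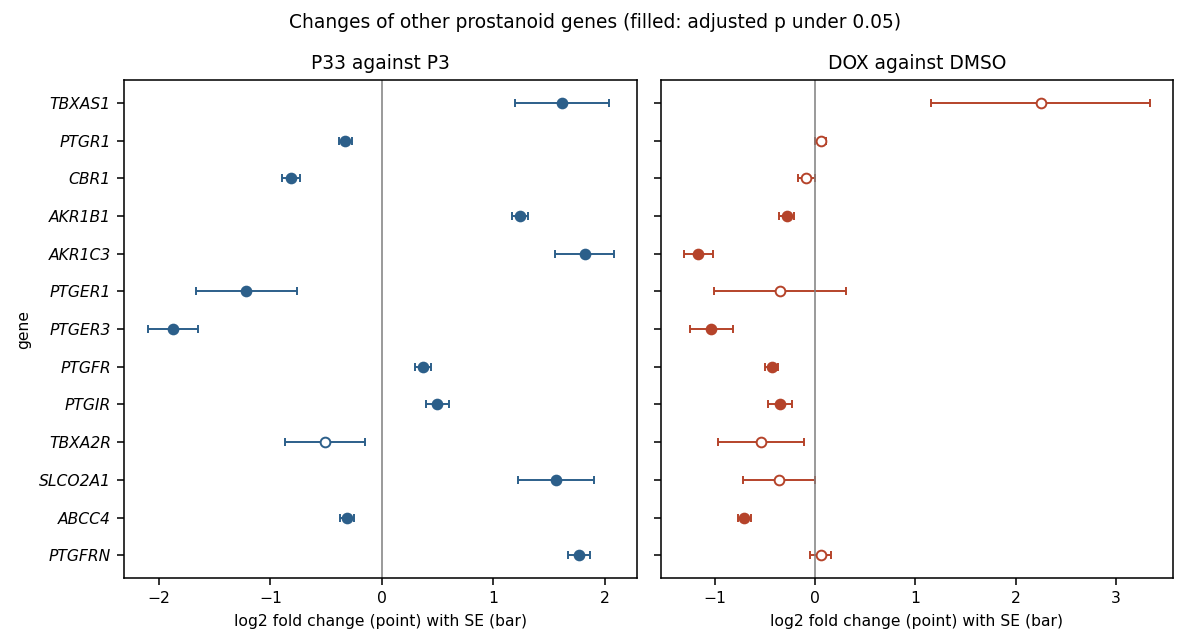
Log2 fold change (horizontal axes, point, with SE as bar; the 2 scales differ) of 13 other prostanoid genes, for P33 against P3 on the left and DOX against DMSO on the right, with filled points for an adjusted p under 0.05. PTGDS and PTGR2, which were counted differently in the 2 sets of libraries, are left out, and AKR1C3 is above 0 at P33 and under 0 with DOX.

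Of 13 tested genes of arachidonate supply, 5 were higher and 5 lower at P33 than at P3, close to the 34.5% and 33.3% of all genes, and 4 were higher and 4 lower with DOX, beside 16.7% and 20.6%. The list's median log2 fold change was −0.09 at P33, against 0 over all genes, and 0.14 with DOX, against −0.01. PLA2G4C, a calcium-independent relative of PLA2G4A, averaged 14 CPM at P33 and 4.48 CPM at P3 (log2 fold change 1.64, adjusted p = 1.36e-15), PLA2G6 averaged 10.1 CPM at P33 and 4.82 CPM at P3, and FAAH 1.5 CPM at P33 and 0.843 CPM at P3. ANXA2, of the annexin family, averaged 1290 CPM at P33 and 2400 CPM at P3 (log2 fold change −0.90). With DOX, PLA2G12A, ANXA1 and PLA2G6 were higher (log2 fold changes 0.53, 0.49 and 0.44) and LPCAT3, which puts arachidonate back into membranes, was lower (−0.47). In the lipoxygenase arm, which makes leukotrienes from the same acid, only LTA4H of 9 genes had enough reads: it was not called at P33 (adjusted p = 0.0721) and was slightly higher with DOX (log2 fold change 0.15, adjusted p = 0.0212), a call lost without DOX replicate 2, DMSO replicate 1 or DMSO replicate 2 (0.11, 0.15 and 0.15) and with no count filter (0.14, adjusted p = 0.136).

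Of 15 tested regulators of PTGS2, a list that holds inducers, transcription factors and mRNA decay factors together, 8 were higher and 4 lower at P33, and 3 were higher and 9 lower with DOX. Over all genes tested, 34.5% were higher and 33.3% lower at P33, and 16.7% higher and 20.6% lower with DOX. The list's median log2 fold change was 0.40 at P33, against 0 over all genes, and −0.26 with DOX, against −0.01. TIA1, 1 of the 15, averaged at most 0.253 CPM in any passage group, but 99.3 CPM in DOX cells and 122 CPM in DMSO cells. It thus passed the filter on low counts only through the DOX and DMSO libraries. Its value at P33 against P3 is therefore not read as a result, although the list's median includes it. Those libraries and the passage libraries were counted differently for overlapping genes, and the part of this in the TIA1 levels was not tested. CEBPB, a transcription factor that binds C/EBP sites, averaged 146 CPM at P33 and 38.1 CPM at P3 (log2 fold change 1.94, adjusted p = 5.65e-19), but 41.8 CPM in DOX cells and 73.7 CPM in DMSO cells (log2 fold change −0.82, adjusted p = 3.98e-09). CEBPD was lower with DOX as well (−0.53, adjusted p = 0.000128). The cytokine genes IL1A and IL1B, whose products induce PTGS2, were higher in both. IL1A averaged 7.42 CPM at P33 and 0.340 CPM at P3, and 10.7 CPM in DOX cells and 4.19 CPM in DMSO cells. IL1B averaged 11.9 CPM at P33 and 2.06 CPM at P3, and 18.0 CPM in DOX cells and 9.93 CPM in DMSO cells. PTGS2 was thus lower in DOX cells beside higher IL1A and IL1B.

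The immediate early genes FOS and FOSB were very uneven at P33. FOS had 73.8, 7.91 and 27.1 CPM at P33 and 1.29, 1.46 and 2.21 CPM at P3, with a log2 fold change of 4.50 that was 3.43 without P33 replicate 1. FOSB had 54.8, 2.40 and 12.5 CPM at P33 and 1.64, 1.70 and 2.01 CPM at P3, with 3.73 and, without P33 replicate 1, 2.06. PTGS2 was lowest among the P33 libraries in replicate 2, as were both of these genes.

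Of 9 tested genes that respond to cyclic AMP, the messenger of EP2 and EP4, 7 were higher and 1 lower at P33, beside 34.5% and 33.3% of all genes. With DOX 2 were higher and 3 lower, beside 16.7% and 20.6%. Their median log2 fold change was 0.65 at P33, against 0 over all genes, and −0.09 with DOX, against −0.01. PDE4B and CREM had log2 fold changes of 1.24 and 0.90 at P33, and NR4A3 fell to 8.24 CPM at P33, against 18.8 CPM at P3 (adjusted p = 3.57e-12). With DOX, NR4A3 was again lower (−1.18), DUSP1 was higher (0.77), and AREG and PDE4B were lower (−0.53 and −0.27). The AREG call was lost without DOX replicate 1, DOX replicate 2 or DMSO replicate 3 (−0.52, −0.44 and −0.43), and the PDE4B call without DOX replicate 2 or DMSO replicate 2 (−0.20 and −0.19).

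Across the 15 passage libraries, JUNB, DUSP5 and PER2 had the patterns most like that of PTGS2. Likeness was the root mean square difference of log2 CPM after centring each of 9914 protein-coding genes on its own mean, and was 0.194, 0.232 and 0.250 for those genes, with a median of 0.530 over all genes compared. JUNB had 27.8, 38.5 and 24.1 CPM at P30, and 38.2, 24.9 and 31.6 CPM at P33, so it shared with PTGS2 its high library at P30 and its low library at P33. At P24, replicate 3 was the highest of its group for JUNB (19.4 CPM) and DUSP5 (55.1 CPM). It was not the highest for PER2, which had 7.23, 6.52 and 7.06 CPM at P24. The genes most like PTGS1 were ROCK1, ITGB1BP1 and GNL2 (0.07 to 0.08), those most like PTGES were PFKL, COA7 and TCEAL1 (0.133 to 0.14), and those most like PTGIS were EEPD1, HSD17B7 and MSMO1 (0.245 to 0.278). EEPD1 was highest at P11, with 16.2, 14.1 and 15.7 CPM, and lowest at P30, with 5.08, 5.10 and 4.73 CPM, as PTGIS was.

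**Figure D5:**
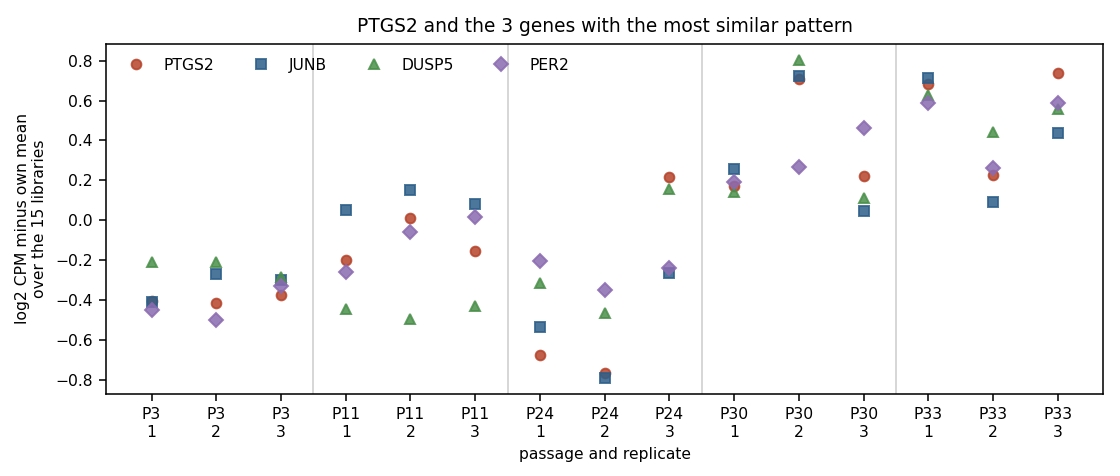
Log2 CPM of PTGS2, JUNB, DUSP5 and PER2 minus each gene's own mean over the 15 passage libraries (vertical axis), by passage and replicate (horizontal axis, replicates of 1 passage in no order). PTGS2 and JUNB were both high in P30 replicate 2 and low in P24 replicate 2.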

How the data were processed

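RNA of BJ fibroblasts was sequenced in 21 libraries (7 groups of 3), and the authors deposited raw counts of reads for each gene in 1 table. Per the submitters' processing notes, the tools include cutadapt 3.3, HISAT2 2.1.0 and featureCounts 2.0.1, and the builds are hg38 and GRCh38.p13; the sources used here do not give options. From these counts, genes were kept with edgeR's filterByExpr at a minimum count of 10 (16821 kept, 44723 dropped), scaled by TMM (factors 0.899 to 1.13) and fitted in 1 quasi-likelihood model of the 7 groups with 14 residual degrees of freedom (edgeR 4.0.16, R 4.3.3, two-sided). The fit was tested on simulated data. Every pair of replicates differed by more than sampling noise, with a chi-square per degree of freedom of 2.692 to 11.141. Ratios per kb used merged exons of GENCODE v29. The limit given for a count of 0 covers counting error alone, because PCR duplicates are not separate molecules.

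The genes, lists and tests were chosen with earlier results of these data known. From each further list up to 4 called genes of at least 1 CPM were named for P33 against P3 and up to 4 for DOX against DMSO, those of the largest change. Likeness was computed for genes of at least 5 CPM, naming 3 each. Alternatives were RLE scaling, DESeq2 1.42.0, no count filter, a filter of 10 CPM in 3 libraries, fitting each set of libraries alone, leaving out genes that overlap on the same strand, a replicate block and leaving out each library in turn. Replicate numbers did not pair the libraries.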

Additional observations from a re-analysis of the deposited data

Results flagged for a closer look

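The effect of DOX (against DMSO) and the effect of late passage (P33 against P3) differed by edgeR's quasi-likelihood test of their difference for 7 of the 9 genes tested, as they did for 51.2% of all genes. The differences, DOX effect minus P33 effect on the log2 scale, were negative for PTGS2 (−1.60, adjusted p = 2.23e-07), PLA2G4A (−1.59, adjusted p = 1.93e-08) and PTGIS (−0.49, adjusted p = 0.000351). They were positive for PTGS1 (0.55, adjusted p = 9.28e-08), PTGES (0.69, adjusted p = 1.56e-05), PTGES2 (0.73, adjusted p = 1.33e-06) and PTGER2 (2.40, adjusted p = 0.0183). The PTGER2 difference rests on 2 to 21 counts per library and was lost without DOX replicate 1 (1.71, adjusted p = 0.171). PTGER2 also passed the filter on low counts only through its early passages, so this call is not read as a result. The 2 effects come from libraries that were counted differently for overlapping genes, and PTGS1 contains such a gene. They also start from different passages, P11 for DOX and P3 for late passage, so the differences depend on the change from P3 to P11.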

How the results depend on the processing

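The members' calls and directions were stable under most settings. RLE scaling left 88 of 90 gene values on their side of the threshold and DESeq2 left 83 of 90, and no setting other than leaving out a library reversed a direction. With a filter of 10 CPM (10017 genes tested), 7577 genes were called at P33 against P3 and 9233 for any difference among passages, against 11408 and 13953 otherwise, and 5 of 7 members were called at P24 against P3 and 3 of 7 at P33 against P30. Fewer genes were tested there, PTGER2 and PTGER4 not among them. Leaving out genes with a same-strand overlap (10845 tested), 5196 genes were called at P11 against P3, 3734 at P24 against P11 and 5416 at P33 against P30, against 7825, 5658 and 8142. PLA2G4A at P33 against P3 passed under RLE, DESeq2, the 10 CPM filter, the passage libraries alone and without overlapping genes (0.31 to 0.43; adjusted p = 0.044, 0.0475, 0.00956, 0.0227 and 0.0263); the cause was not tested. PTGER4 at P24 against P11, PTGES at P30 against P24 and PTGES2 at P33 against P30 were called in the reported fit and not under DESeq2 (adjusted p = 0.0638, 0.055 and 0.0512) or with no count filter (0.0557, 0.11 and 0.0637).

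Leaving out each library in turn, members called at P33 against P30 ranged from 3 to 5, the 3 being without P30 replicate 2. Directions turned for PTGER2 at P11 against P3 (−0.29 to 0.28) and in DOX against DMSO (−1.15 to 0.084), PTGS2 at P24 against P3 (−0.32 to 0.24), PTGER4 at P30 against P3 (−0.17 to 0.005), PLA2G4A and PTGES3 at P33 against P30 (−0.028 to 0.21 and −0.016 to 0.059), and PTGES2 in DOX against DMSO (−0.14 to 0.03). Of these, only PTGS2 without P24 replicate 3 passed the test in the turned direction (adjusted p = 0.0194).

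Same-numbered libraries did not deviate together (correlation −0.077 to 0.041), so the numbers do not pair them. With a replicate block all 90 gene values kept their call, 7 members being called at P33 against P3 and 5 in DOX against DMSO. Depth limits HPGD, PTGER2 and PTGER4, where single reads move the values.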

Other observations

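PTGIS stood at 112 to 113 CPM in P11 cells given DMSO and 27.2 to 30.2 CPM in untreated P11 cells. PLA2G4A was nearer, at 12.3 to 13.6 CPM in DMSO cells and 9.92 to 10.1 CPM in untreated P11 cells, and PTGS2 was lower, at 100 to 106 CPM in DMSO cells and 145 to 167 CPM in untreated P11 cells. These are levels side by side, with no test, since the 2 sets of libraries were counted differently for genes that overlap on the same strand. PTGIS and PLA2G4A overlap no gene on either strand.

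Of the receptors for the other prostanoids, PTGFR (prostaglandin F receptor) had 35.3, 37.9 and 34.0 CPM at P33 and 24.9, 29.7 and 28.3 CPM at P3, without overlap. PTGIR (prostacyclin receptor) had 14.4, 12.4 and 13.2 CPM at P33 and 10.8, 8.94 and 8.54 CPM at P3, also without overlap. Both passed at P33 against P3 by edgeR's quasi-likelihood test (log2 fold changes 0.37 and 0.50, adjusted p = 1.72e-05 and 8.16e-05), while PTGER3 and PTGER4 were called as lower there, without overlap. PTGER1 was called as lower too, but its P33 and P3 libraries overlapped. It passed the filter on low counts only through the passages before P33, so that call is not read as a result. In DOX cells PTGFR and PTGIR were lower than in DMSO cells (−0.43 and −0.35, adjusted p = 2.16e-06 and 0.022). PTGFR and PTGIR were named after their values were seen.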
